A study of Mus musculus with 12 samples.

Results

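The mitosis genes described here are 42 mouse genes whose products drive or carry out cell division: the cyclin-dependent kinase Cdk1 and its cyclins, mitotic kinases, spindle checkpoint and kinetochore proteins, mitotic kinesins and proteins of the spindle, midzone and chromosomes. They were chosen by name, as a list of textbook mitosis genes, with earlier results of these data known. A gene was measured by the probe set whose only gene symbol was its own. Of the 42, 41 had such a probe set, out of 19938 genes measured in this way, and Ccnb1 was not analysed here. Kif14 and Top2a had a second probe set, and the one with the highest mean stood for the gene.

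EL-4 is an established mouse T lymphoma cell line, and its mRNA was profiled on Affymetrix Mouse Gene 1.0ST arrays. Before stimulation, cells received cycloheximide (CHX, 10 μg/ml), an inhibitor of protein synthesis dissolved in DMSO, or DMSO alone, for 30 min. They were then harvested unstimulated (0 h) or after 4 h with phorbol myristate acetate (10 ng/ml) and ionomycin (1 μM), together called P/I, which act downstream of the T cell receptor. There were 4 groups of 3 biological replicates, 12 arrays in all. All cells therefore carried DMSO, and the line divides without stimulation, so the groups start from cycling cells. Since the unstimulated cells were taken at 0 h, P/I and 4 h of further culture cannot be told apart, and in CHX-treated cells the comparison also covers more hours in CHX. The comparison of CHX with DMSO during P/I has matched times. In bulk RNA, fewer cells in mitosis and less mRNA per cell cannot be told apart.

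Transcripts of mitosis genes accumulate in G2 and are cleared around mitotic exit, so their mRNA level can follow the share of cells in late cell cycle. That share was not measured here. Their promoters often carry a CHR (cell cycle genes homology region), which is bound by the DREAM and MuvB complexes, together with CCAAT boxes bound by NF-Y. DREAM, which holds the pocket proteins p107 and p130, keeps these genes low in quiescent cells, and MuvB with B-Myb and FoxM1 raises them towards mitosis.

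Promoter sequence was available for 34 of the 41 measured genes, as windows from 250 bases before to 50 after the annotated start (RefSeq, GRCm38.p6). The 7 others were Aurkb, Ccna2, Cdc25c, Dlgap5, Incenp, Kif20a and Tpx2. The letters TTTGAA, the CHR core, were present on either strand in 26 of the 34 genes (76.5%), against 20.2% of all 27025 genes with a window. CCAAT was present on either strand in 26 of the 34 (76.5%), against 41.1% of all genes. Both were present in 22 of the 34 (64.7%), against 7.97% of all genes, and a CHR shared bases with another motif in 1 case. The E2F letters TTTCGCGC or TTTGGCGC were found in Cdk1 and Kif18a only, against 0.929% of all genes. When only the bases before the start were read, 12 of the 34 genes held a CHR, against 18.3% of all genes, since many of the CHR matches lay just after the annotated start. A match is a description of letters, not evidence of a bound site.

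The bases before the start are printed for 6 genes that hold both motifs there and that differ in their response below. Prc1, Kif22, Kif11 and Ccnb2 fell with P/I in DMSO and were higher with CHX during P/I. Cdk1 passed neither test, and Ccnf fell with P/I in DMSO and was lower with CHX during P/I. Capitals mark TTTGAA (or TTCAAA on the other strand), CCAAT (or ATTGG) and, in Cdk1, TTTCGCGC. For Prc1, which has 2 windows, the one with both motifs before the start is shown.
Prc1, chr7:80294226-80294475, plus strand: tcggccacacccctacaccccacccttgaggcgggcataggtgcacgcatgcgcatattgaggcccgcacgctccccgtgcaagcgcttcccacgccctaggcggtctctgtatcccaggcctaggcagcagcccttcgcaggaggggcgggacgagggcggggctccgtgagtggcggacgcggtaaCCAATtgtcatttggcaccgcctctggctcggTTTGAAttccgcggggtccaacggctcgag
Kif22, chr7:127042421-127042670, minus strand: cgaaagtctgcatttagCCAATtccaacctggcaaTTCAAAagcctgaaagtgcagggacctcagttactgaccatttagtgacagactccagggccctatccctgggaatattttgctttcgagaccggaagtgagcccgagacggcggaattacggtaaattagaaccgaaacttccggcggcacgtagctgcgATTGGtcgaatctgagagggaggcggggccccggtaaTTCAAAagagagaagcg
Kif11, chr19:37376132-37376381, plus strand: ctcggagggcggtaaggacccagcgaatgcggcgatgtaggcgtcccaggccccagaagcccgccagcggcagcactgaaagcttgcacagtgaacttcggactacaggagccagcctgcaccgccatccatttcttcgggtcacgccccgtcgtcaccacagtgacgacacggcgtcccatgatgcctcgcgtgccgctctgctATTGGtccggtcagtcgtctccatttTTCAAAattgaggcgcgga
Ccnb2, chr9:70421555-70421804, minus strand: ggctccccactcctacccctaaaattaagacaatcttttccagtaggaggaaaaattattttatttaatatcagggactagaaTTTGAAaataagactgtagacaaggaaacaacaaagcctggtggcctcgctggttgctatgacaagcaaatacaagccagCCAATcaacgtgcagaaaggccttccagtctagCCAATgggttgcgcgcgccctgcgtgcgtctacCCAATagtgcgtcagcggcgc
Cdk1, chr10:69352913-69353162, minus strand: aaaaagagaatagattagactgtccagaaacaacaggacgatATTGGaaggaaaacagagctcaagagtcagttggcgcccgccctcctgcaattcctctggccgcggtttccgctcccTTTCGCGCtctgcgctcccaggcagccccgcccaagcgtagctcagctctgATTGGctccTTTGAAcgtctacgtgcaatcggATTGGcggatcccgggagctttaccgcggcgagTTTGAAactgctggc
Ccnf, chr17:24251410-24251659, minus strand: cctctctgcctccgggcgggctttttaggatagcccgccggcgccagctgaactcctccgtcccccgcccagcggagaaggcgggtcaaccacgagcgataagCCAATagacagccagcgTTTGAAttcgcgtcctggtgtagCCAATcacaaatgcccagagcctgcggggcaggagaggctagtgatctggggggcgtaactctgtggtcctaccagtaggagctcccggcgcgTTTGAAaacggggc

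In these windows a pair of motifs stood close to the start in Kif11, Prc1, Kif22 and Cdk1. In this order, the CHR began at base -19, -30, -17 and -15, and the CCAAT box at -45, -62, -54 and -48. Ccnb2 held 3 CCAAT boxes, and Cdk1 held 3 together with 2 CHR letters. Kif22 and Ccnf held 2 of each motif. Of the 22 genes with both motifs in the whole window, 17 fell with P/I in DMSO-treated cells. Of the 12 with a window and without both, 7 fell, and all 7 genes with no window fell. Over all tested probe sets 8.42% were lower. A link between the motifs and the response was not tested.

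**Figure D1:**
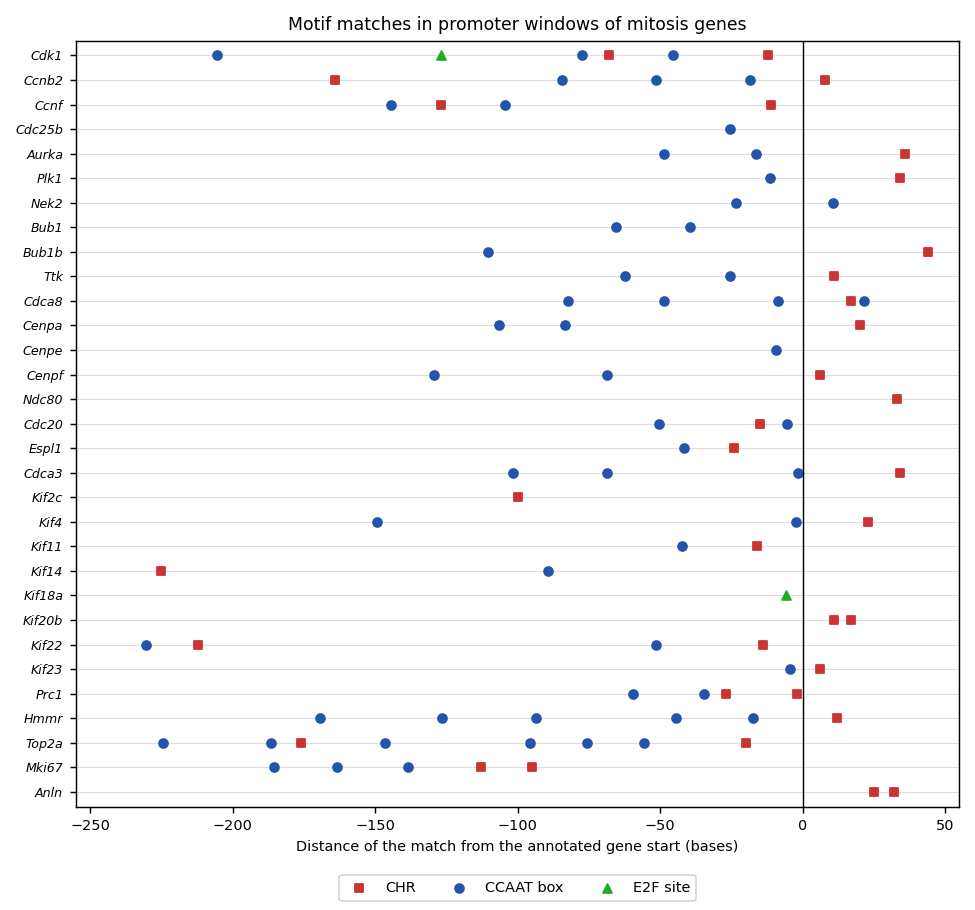
Motif matches (TTTGAA, CHR, red squares; CCAAT box, blue circles; E2F letters, green triangles; either strand) in the promoter windows of mitosis genes, by distance in bases from the annotated start (x axis, 0 marked by the line); each row is a gene with at least 1 match, and Prc1 shows both of its windows. Of 34 genes with a window, 26 hold a CHR and 26 a CCAAT box, and many CHR matches lie to the right of the start.

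To check the labelled cell type, 8 of 9 T cell markers were measured, with group means from log2 7.71 (Cd247) to 12.6 (Cd3g). Group means were 4.21 to 7.44 for 5 B cell markers (highest Cd79b), 4.28 to 6.55 for 6 myeloid markers (highest Fcgr1), and 4.53 to 6.91 for 4 erythroid and fibroblast markers (highest Col1a1). A level depends on the probes of its probe set as well as on the transcript, so these ranges are a description. Cd79b was at 7.44 unstimulated and 6.50 with P/I in DMSO-treated cells, and Fcgr1 was at 6.55 with CHX and P/I and at 5.17 to 5.35 in the other groups; their part in the results was not tested. Arrays of 1 group correlated at 0.983 to 0.994. For each array, the 41 mitosis genes were set against their mean in the 3 unstimulated DMSO arrays, and the median of these differences was taken. It was 0.20, -0.10 and -0.09 in the unstimulated DMSO arrays themselves, and -0.23, -1.20 and -1.25 in replicates 1, 2 and 3 of P/I in DMSO. The first of these replicates thus stood apart from the others: 25 of its mitosis genes lay below all 3 unstimulated DMSO arrays, against 40 and 41. In unstimulated CHX-treated cells the median difference was 0.27, 0.05 and 0.11, and in P/I-stimulated CHX-treated cells it was -0.05, -0.04 and 0.05. The spread followed this, with a median SD of the mitosis genes of log2 0.59 in P/I-stimulated DMSO-treated cells against 0.18, 0.16 and 0.13 in the other groups.

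**Figure D2:**
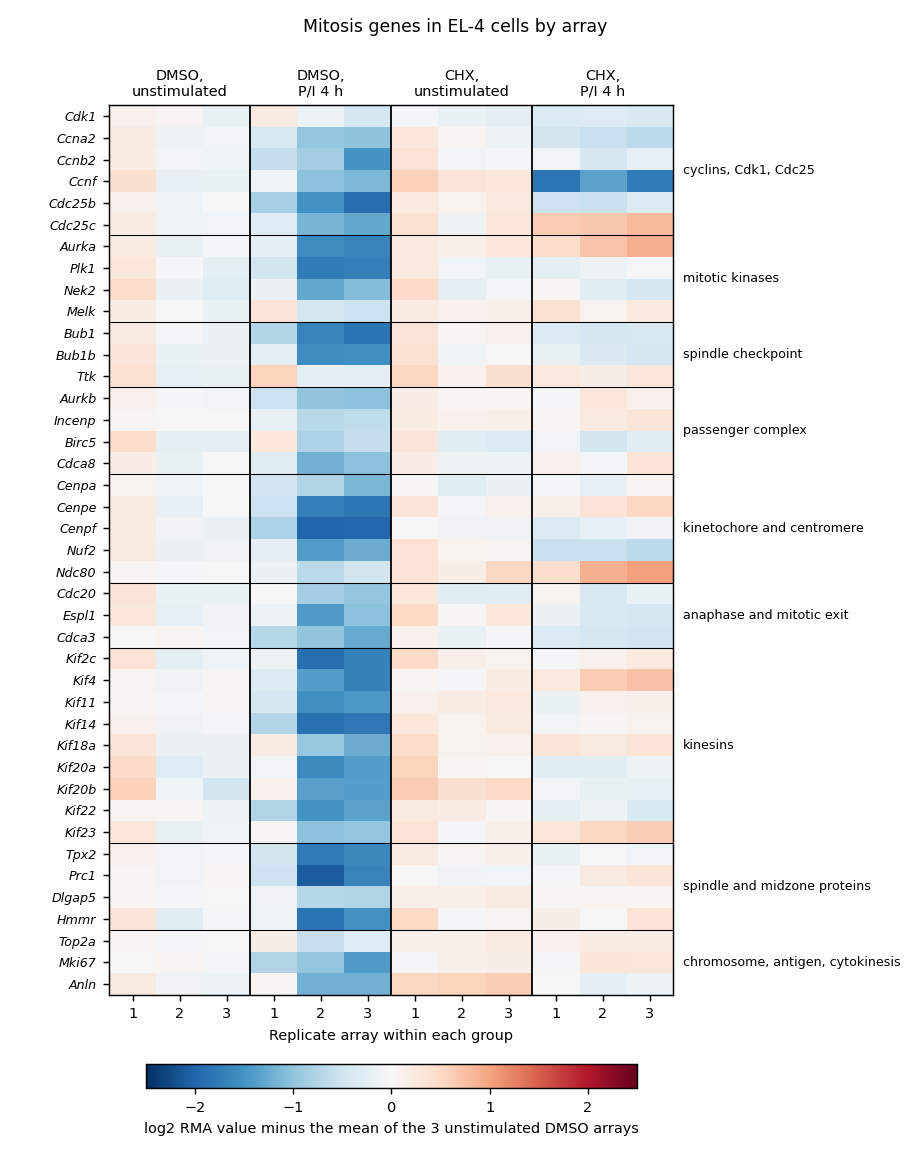
Level of each of the 41 mitosis genes (rows, grouped by role) on each of the 12 arrays (columns, 3 replicates in each of 4 groups), as log2 RMA value minus the mean of the 3 unstimulated DMSO arrays (colour scale, blue lower, red higher). Most genes are lower in P/I-stimulated DMSO-treated cells, more so in replicates 2 and 3 (median difference -1.20 and -1.25) than in replicate 1 (-0.23), and near the unstimulated level with CHX and P/I.

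Most mitosis genes of DMSO-treated cells were lower after 4 h of P/I than at 0 h, where P/I and further culture cannot be told apart. Of the 41, 31 were lower and 0 higher at a Benjamini-Hochberg adjusted p under 0.1 (75.6% lower), while 8.42% of the 23410 tested probe sets were lower and 9.05% higher. All p-values come from limma. Among the 31 were the cyclins Ccna2, Ccnb2 and Ccnf, the phosphatases Cdc25b and Cdc25c, the kinases Aurka, Aurkb, Plk1, Nek2 and Bub1, the pseudokinase Bub1b, and 6 of the 9 kinesins. The median log2 fold change of the 41 was -0.92, against -0.03 over all tested probe sets, and 17 genes were lower by more than log2 1. Cenpf, a kinetochore protein, had the largest decrease (log2 -1.58, SE 0.25, adjusted p = 0.00121), a 2.99-fold lower level. In 25 of the 41 genes every P/I array lay below every unstimulated DMSO array, against 12.7% of all tested probe sets. The 10 genes that did not pass the test were Birc5, Cdc20, Cdk1, Kif18a, Kif20b, Kif23, Melk, Ndc80, Top2a and Ttk, with log2 fold changes from -0.87 (Kif20b) to 0.03 (Ttk). The count was 39 without replicate 1 of P/I in DMSO and 21 without replicate 3 of it. In these fits 10.5% and 6.16% of all tested probe sets were lower. The count was 10 without the 4 arrays of replicate 2 or the 4 of replicate 3, where 3.75% and 2.76% were lower. Of the 31 genes, 21 passed without each single array in turn. A fit with only the arrays of the groups compared gave 23 lower genes (6.63% of all tested probe sets). Median centring of the arrays gave 24 (6.21%) and a fit without moderated variance 24 (7.28%). Quantile normalization of the tested probe sets gave 36 (10.4%).

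Most mitosis genes were higher with CHX during P/I than without it. Compared with P/I in DMSO, 28 of the 41 genes were higher with CHX (68.3%) and 1 was lower, while 13.2% of all tested probe sets were higher and 12% lower. The median log2 fold change was 0.94, against 0.01 over all tested probe sets, and 16 genes were higher by more than log2 1. The largest difference was that of Aurka, the spindle pole kinase (log2 fold change 1.84, SE 0.30, adjusted p = 0.000838), 3.58-fold. In 26 genes every array with CHX lay above every array without it, against 15.3% of all tested probe sets. The gene that was lower was Ccnf, cyclin F. The 12 genes that did not pass the test were Anln, Birc5, Ccna2, Cdc20, Cdk1, Espl1, Kif20a, Kif20b, Melk, Nek2, Nuf2 and Ttk. This comparison and that of P/I in DMSO use the same 3 P/I-stimulated DMSO arrays, so an error in those arrays enters both with opposite sign. Leaving out single arrays gave counts of 25 to 38 higher genes. In these fits 10.5% to 14.7% of all tested probe sets were higher. Without the 4 arrays of replicate 3, 9 genes remained and 5.93% of all tested probe sets were higher.

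**Figure D3:**
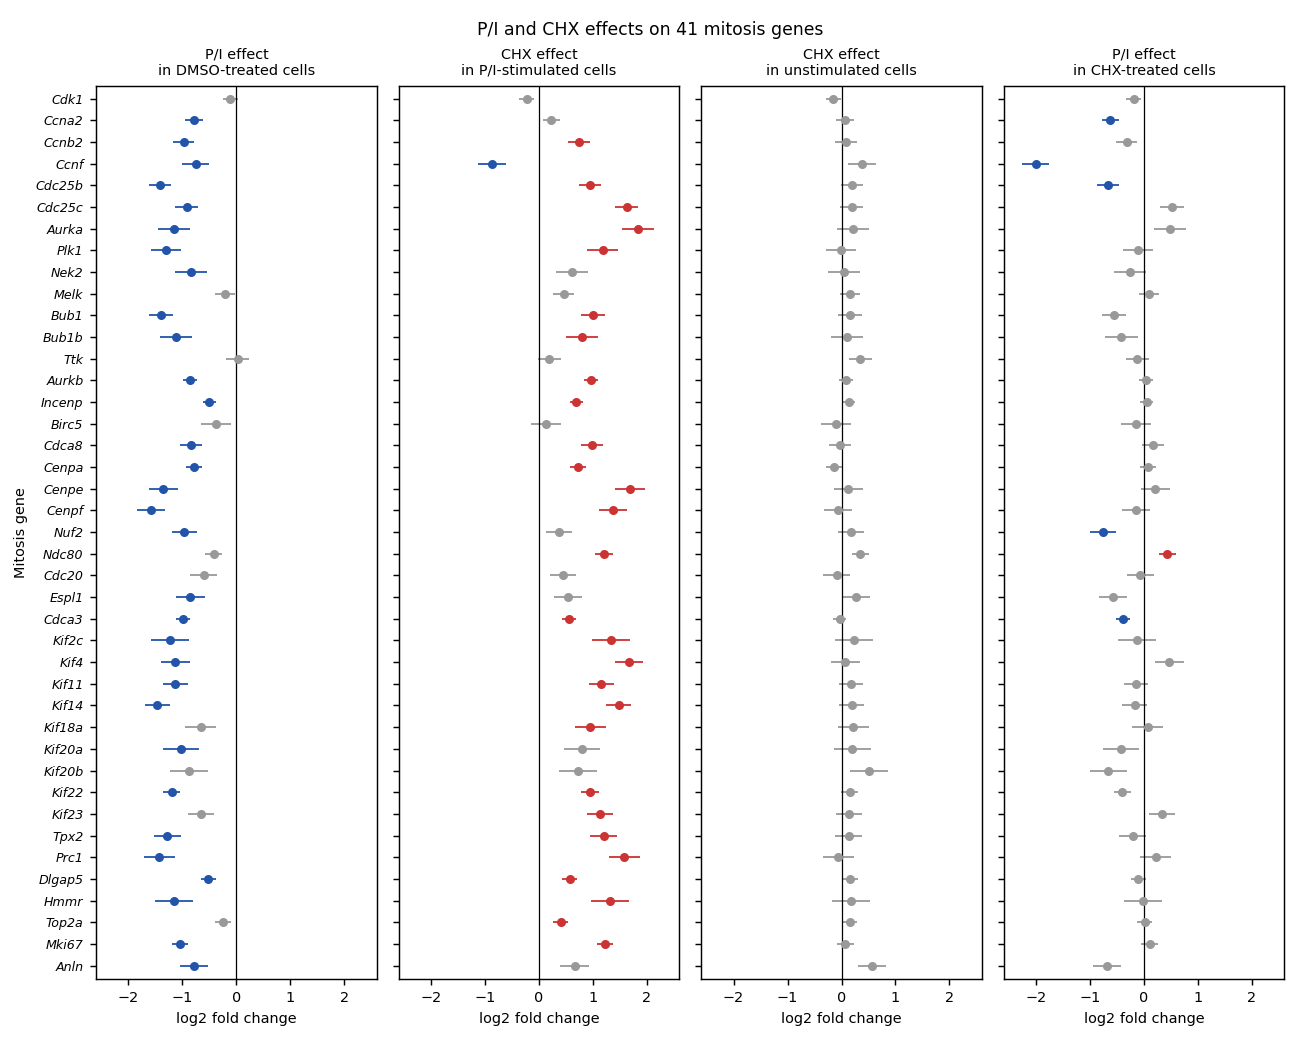
Log2 fold changes (x axis) of the 41 mitosis genes (y axis, ordered by role) in 4 comparisons, with bars of 1 SE from limma on 3 arrays per group; blue marks genes lower, and red genes higher, at an adjusted p under 0.1, and grey marks those that did not pass. P/I in DMSO has 31 blue and 0 red genes, CHX during P/I has 28 red and 1 blue (Ccnf), CHX without P/I has none, and P/I in CHX-treated cells has 5 blue and 1 red.

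Cyclins, Cdk1 and Cdc25 phosphatases set the entry into mitosis: cyclins A and B activate Cdk1, and the phosphatases remove its inhibitory phosphates. Of the 6 measured, 5 fell with P/I, and with CHX during P/I 3 were higher and 1 lower. Values are given for replicates 1, 2 and 3 in order, with the mean ± SD (n = 3). The log2 level of Ccna2 was 10.58, 10.23 and 10.29 in unstimulated DMSO-treated cells (mean 10.37 ± 0.18) and 9.97, 9.41 and 9.36 in P/I-stimulated ones (mean 9.58 ± 0.34). The CHX-treated cells gave 10.63, 10.42 and 10.24 when unstimulated (mean 10.43 ± 0.20) and 9.91, 9.81 and 9.71 when stimulated (mean 9.81 ± 0.10). Every P/I array, with or without CHX, was below every unstimulated array. Ccna2, cyclin A2, fell in DMSO-treated cells (log2 fold change -0.79, SE 0.16, adjusted p = 0.0062), and its difference with CHX during P/I did not pass the test (0.23, SE 0.16, adjusted p = 0.424). Without CHX, Cdc25b was measured at log2 9.21, 8.98 and 9.10 before P/I (mean 9.10 ± 0.11) and 8.27, 7.59 and 7.21 after it (mean 7.69 ± 0.54). Under CHX, Cdc25b was at 9.34, 9.19 and 9.34 before P/I (mean 9.29 ± 0.09) and 8.58, 8.55 and 8.75 after it (mean 8.63 ± 0.11). The 3 arrays with CHX and P/I lay between the other stimulated arrays and all unstimulated ones. Cdc25b fell by 1.41 on the log2 scale with P/I in DMSO (SE 0.20, adjusted p = 0.000525) and was higher with CHX during P/I (0.94, SE 0.20, adjusted p = 0.00519). In the unstimulated DMSO arrays Cdc25c was at log2 7.27, 6.97 and 7.02 (mean 7.09 ± 0.16), and after P/I it was at 6.76, 5.93 and 5.81 (mean 6.17 ± 0.51). The CHX arrays stood at 7.48, 6.97 and 7.38 without P/I (mean 7.27 ± 0.27) and at 7.72, 7.77 and 7.88 with it (mean 7.79 ± 0.08). Cdc25c was thus lower with P/I in DMSO (-0.92, SE 0.22, adjusted p = 0.0126), while with CHX its P/I arrays were above all the other 9 arrays (CHX during P/I, 1.62, SE 0.22, adjusted p = 0.000206). Ccnb2, cyclin B2, had log2 fold changes of -0.98 with P/I in DMSO (adjusted p = 0.00553) and 0.74 with CHX during P/I (adjusted p = 0.0189).

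In this group, Ccnf was lower with CHX during P/I and Cdk1 passed neither test. Cyclin F, the product of Ccnf, is the substrate receptor of a ubiquitin ligase and does not bind Cdk1. For Ccnf, the 3 unstimulated DMSO arrays gave log2 8.84, 8.24 and 8.26 (mean 8.45 ± 0.34) and the 3 arrays with P/I gave 8.35, 7.42 and 7.31 (mean 7.69 ± 0.57). Pretreatment with CHX gave 9.01, 8.77 and 8.70 at 0 h (mean 8.83 ± 0.16) and 6.65, 7.11 and 6.70 after P/I (mean 6.82 ± 0.25). The 3 arrays with both CHX and P/I lay below all 9 others, whereas the DMSO groups overlapped. Its log2 fold change was -0.75, SE 0.25, adjusted p = 0.0758 for P/I in DMSO, and -0.87, SE 0.25, adjusted p = 0.0284 for CHX during P/I. The call for P/I in DMSO was lost in 6 of the 12 fits without 1 array, including all 3 that left out an unstimulated DMSO array, with an adjusted p of 0.103 to 0.264. Cdk1 stood at log2 9.57, 9.53 and 9.27 in the unstimulated DMSO arrays (mean 9.46 ± 0.16) and at 9.67, 9.34 and 9.03 after P/I (mean 9.34 ± 0.32). With CHX, its level was 9.41, 9.30 and 9.21 without P/I (mean 9.31 ± 0.10) and 9.11, 9.14 and 9.09 with P/I (mean 9.11 ± 0.03). The Cdk1 arrays of unstimulated and P/I-stimulated DMSO-treated cells overlapped, and neither P/I (-0.11, SE 0.14, adjusted p = 0.716) nor CHX during P/I (-0.23, SE 0.14, adjusted p = 0.337) passed the test.

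The mitotic kinases Aurka, Plk1 and Nek2 act at centrosomes, spindle and kinetochores, and Melk is a kinase of dividing cells. Of the 4, 3 fell with P/I and 2 were higher with CHX during P/I. The log2 level of Plk1 was 10.38, 10.04 and 9.87 in unstimulated DMSO-treated cells (mean 10.10 ± 0.26) and 9.64, 8.35 and 8.38 in P/I-stimulated ones (mean 8.79 ± 0.74). The CHX-treated cells gave 10.33, 10.03 and 9.91 when unstimulated (mean 10.09 ± 0.22) and 9.87, 9.96 and 10.09 when stimulated (mean 9.97 ± 0.11). All P/I arrays without CHX lay below the other 9, and those with CHX lay within the range of the unstimulated arrays. Plk1 had log2 fold changes of -1.30, SE 0.28, adjusted p = 0.00839 with P/I in DMSO and 1.18, SE 0.28, adjusted p = 0.0103 with CHX during P/I. Aurka fell by 1.15 on the log2 scale with P/I (adjusted p = 0.0222, 0.102 without replicate 3 of P/I in DMSO). Nek2 fell with P/I (-0.84, adjusted p = 0.0923), a call lost when any 1 of 8 arrays was left out (adjusted p 0.104 to 0.262). Melk had log2 fold changes of -0.21 and 0.46 that did not pass the test.

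The spindle checkpoint kinases Bub1 and Ttk and the pseudokinase Bub1b hold back anaphase until chromosomes are attached. Bub1 fell with P/I (log2 fold change -1.40, SE 0.22, adjusted p = 0.00112) and was higher with CHX during P/I (1.01, SE 0.22, adjusted p = 0.00627). Bub1b had log2 fold changes of -1.12 (adjusted p = 0.0261) and 0.79 (adjusted p = 0.088). The second of these calls was lost when any 1 of 9 arrays was left out (adjusted p 0.108 to 0.292), and the first without replicate 3 of P/I in DMSO (0.119). Without CHX, Ttk was measured at log2 8.62, 8.02 and 8.05 before P/I (mean 8.23 ± 0.34) and 8.78, 8.01 and 7.98 after it (mean 8.25 ± 0.45). Under CHX, Ttk was at 8.75, 8.34 and 8.63 before P/I (mean 8.57 ± 0.21) and 8.47, 8.37 and 8.51 after it (mean 8.45 ± 0.07). Ttk was the member with the smallest P/I effect in DMSO, and its 4 groups overlapped.

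The chromosomal passenger complex consists of the kinase Aurkb, its scaffold Incenp, and Birc5 (survivin) and Cdca8 (borealin). Of these 4, 3 fell with P/I and, during P/I, the same 3 were higher with CHX. In the unstimulated DMSO arrays Aurkb was at log2 10.42, 10.29 and 10.24 (mean 10.32 ± 0.10), and after P/I it was at 9.78, 9.33 and 9.28 (mean 9.46 ± 0.28). The CHX arrays stood at 10.47, 10.37 and 10.36 without P/I (mean 10.40 ± 0.06) and at 10.27, 10.59 and 10.43 with it (mean 10.43 ± 0.16). The 3 arrays with P/I and no CHX lay below all 9 others. Aurkb had log2 fold changes of -0.85, SE 0.13, adjusted p = 0.000814 with P/I in DMSO and 0.97, SE 0.13, adjusted p = 0.000225 with CHX during P/I. For Incenp, the 3 unstimulated DMSO arrays gave log2 9.31, 9.27 and 9.28 (mean 9.28 ± 0.02) and the 3 arrays with P/I gave 9.10, 8.60 and 8.65 (mean 8.78 ± 0.28). Pretreatment with CHX gave 9.47, 9.39 and 9.41 at 0 h (mean 9.42 ± 0.04) and 9.33, 9.51 and 9.58 after P/I (mean 9.47 ± 0.13). Incenp moved by less: -0.50, SE 0.12, adjusted p = 0.0151 with P/I in DMSO and 0.69, SE 0.12, adjusted p = 0.00144 with CHX during P/I. Cdca8 had log2 fold changes of -0.84 (adjusted p = 0.0152) and 0.98 (adjusted p = 0.00428). Birc5 had -0.38 (adjusted p = 0.489) and 0.12 (adjusted p = 0.859).

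Among kinetochore and centromere proteins, Cenpa is the centromeric histone H3, Cenpe a kinetochore motor, Cenpf a kinetochore protein of G2 and mitosis, and Nuf2 and Ndc80 subunits of the microtubule-binding NDC80 complex. Of the 5, 4 fell with P/I and 4 were higher with CHX during P/I. Cenpa stood at log2 9.94, 9.76 and 9.87 in the unstimulated DMSO arrays (mean 9.85 ± 0.09) and at 9.38, 9.10 and 8.72 after P/I (mean 9.06 ± 0.33). With CHX, its level was 9.88, 9.56 and 9.72 without P/I (mean 9.72 ± 0.16) and 9.81, 9.66 and 9.90 with P/I (mean 9.79 ± 0.12). The P/I arrays without CHX were the lowest 3 of the 12. Cenpa had log2 fold changes of -0.79, SE 0.15, adjusted p = 0.00326 with P/I in DMSO and 0.72, SE 0.15, adjusted p = 0.00389 with CHX during P/I. The log2 level of Cenpe was 9.05, 8.65 and 8.84 in unstimulated DMSO-treated cells (mean 8.85 ± 0.20) and 8.30, 7.14 and 7.04 in P/I-stimulated ones (mean 7.49 ± 0.70). The CHX-treated cells gave 9.16, 8.80 and 8.96 when unstimulated (mean 8.97 ± 0.18) and 8.99, 9.18 and 9.37 when stimulated (mean 9.18 ± 0.19). Cenpe likewise was lowest on the 3 DMSO arrays with P/I, with log2 fold changes of -1.36 (adjusted p = 0.00485) and 1.69 (adjusted p = 0.000772).

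The 2 measured subunits of the NDC80 complex are set side by side. Without CHX, Ndc80 was measured at log2 7.74, 7.65 and 7.68 before P/I (mean 7.69 ± 0.05) and 7.54, 7.03 and 7.24 after it (mean 7.27 ± 0.26). Under CHX, Ndc80 was at 8.06, 7.84 and 8.22 before P/I (mean 8.04 ± 0.19) and 8.13, 8.57 and 8.72 after it (mean 8.47 ± 0.31). For Ndc80 the DMSO arrays with P/I were below those without it, a difference that did not pass the test (-0.42, SE 0.16, adjusted p = 0.127). It was higher with CHX during P/I (1.20, SE 0.16, adjusted p = 0.000247). In the unstimulated DMSO arrays Nuf2 was at log2 9.93, 9.56 and 9.60 (mean 9.70 ± 0.20), and after P/I it was at 9.45, 8.30 and 8.45 (mean 8.73 ± 0.63). The CHX arrays stood at 10.05, 9.79 and 9.77 without P/I (mean 9.87 ± 0.16) and at 9.13, 9.15 and 9.04 with it (mean 9.11 ± 0.06). For Nuf2, all P/I arrays lay below all unstimulated ones, whether CHX was present or not. It fell with P/I in DMSO (-0.96, SE 0.24, adjusted p = 0.0175), and the difference of CHX during P/I did not pass the test (0.37, SE 0.24, adjusted p = 0.364).

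Of the genes of anaphase and mitotic exit, Cdc20 activates the anaphase-promoting complex, Espl1 (separase) cleaves cohesin, and Cdca3 is a regulator of mitotic entry. For Cdca3, the 3 unstimulated DMSO arrays gave log2 8.29, 8.37 and 8.24 (mean 8.30 ± 0.07) and the 3 arrays with P/I gave 7.58, 7.31 and 7.04 (mean 7.31 ± 0.27). Pretreatment with CHX gave 8.41, 8.13 and 8.24 at 0 h (mean 8.26 ± 0.14) and 7.95, 7.85 and 7.81 after P/I (mean 7.87 ± 0.07). The CHX arrays with P/I lay between the DMSO arrays with P/I and all unstimulated arrays. Cdca3 had the smallest p of all mitosis genes for P/I in DMSO (-0.99, SE 0.12, adjusted p = 0.000213) and was higher with CHX during P/I (0.56, SE 0.12, adjusted p = 0.00627). Espl1 fell with P/I (-0.85, adjusted p = 0.0537), a call lost when any 1 of 4 DMSO arrays was left out (0.106 to 0.174), and Cdc20 had -0.61 (adjusted p = 0.153).

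Mitotic kinesins move and sort chromosomes (Kif4, Kif18a, Kif22, Kif2c), separate spindle poles (Kif11) or act in cytokinesis (Kif14, Kif20a, Kif20b, Kif23). Of the 9, 6 fell with P/I and 7 were higher with CHX during P/I, with medians of log2 -1.13 and 1.12. Kif14 stood at log2 7.66, 7.46 and 7.53 in the unstimulated DMSO arrays (mean 7.55 ± 0.10) and at 6.83, 5.68 and 5.76 after P/I (mean 6.09 ± 0.64). With CHX, its level was 7.82, 7.63 and 7.78 without P/I (mean 7.74 ± 0.10) and 7.49, 7.58 and 7.64 with P/I (mean 7.57 ± 0.08). Its P/I arrays without CHX lay far below the rest, and those with CHX lay within the range of unstimulated DMSO-treated cells. Kif14 had log2 fold changes of -1.46, SE 0.23, adjusted p = 0.00109 with P/I in DMSO and 1.48, SE 0.23, adjusted p = 0.000666 with CHX during P/I. Its second probe set stood at means of log2 4.44 to 4.52 in all groups and gave -0.08 (adjusted p = 0.749) and 0.04 (adjusted p = 0.872). The log2 level of Kif22 was 10.00, 9.98 and 9.80 in unstimulated DMSO-treated cells (mean 9.93 ± 0.11) and 9.18, 8.42 and 8.58 in P/I-stimulated ones (mean 8.73 ± 0.40). The CHX-treated cells gave 10.16, 10.11 and 9.97 when unstimulated (mean 10.08 ± 0.10) and 9.68, 9.79 and 9.55 when stimulated (mean 9.68 ± 0.12). Kif22 again showed the CHX arrays with P/I between both sets, with -1.20, SE 0.16, adjusted p = 0.000335 for P/I in DMSO and 0.95, SE 0.16, adjusted p = 0.00112 for CHX during P/I.

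Without CHX, Kif4 was measured at log2 8.98, 8.82 and 8.94 before P/I (mean 8.91 ± 0.08) and 8.58, 7.54 and 7.22 after it (mean 7.78 ± 0.71). Under CHX, Kif4 was at 8.97, 8.88 and 9.11 before P/I (mean 8.98 ± 0.11) and 9.15, 9.55 and 9.64 after it (mean 9.45 ± 0.26). With CHX and P/I together, Kif4 was above all 9 other arrays. Its log2 fold change was -1.13, SE 0.27, adjusted p = 0.0131 for P/I in DMSO and 1.67, SE 0.27, adjusted p = 0.00076 for CHX during P/I. Kif11 had -1.13 (adjusted p = 0.00492) and 1.16 (adjusted p = 0.00288). Kif2c had -1.23 and 1.33, and Kif20a -1.02 and 0.80, of which the last did not pass the test. The P/I calls of Kif2c and Kif20a were lost without replicate 1 of the unstimulated DMSO arrays (adjusted p = 0.118 and 0.205) and without replicate 2 or 3 of P/I in DMSO, and that of Kif20a also without replicate 3 of the former (0.123). Kif18a and Kif23 had P/I effects of -0.66 and -0.65 that did not pass, and CHX effects during P/I of 0.95 and 1.12 that did. The CHX call of Kif18a was lost without replicate 2 or 3 of P/I in DMSO (0.12 and 0.143). In the unstimulated DMSO arrays Kif20b was at log2 8.92, 8.23 and 7.90 (mean 8.35 ± 0.52), and after P/I it was at 8.46, 6.99 and 6.98 (mean 7.48 ± 0.85). The CHX arrays stood at 8.99, 8.76 and 8.83 without P/I (mean 8.86 ± 0.12) and at 8.28, 8.16 and 8.14 with it (mean 8.20 ± 0.08). The Kif20b arrays of the DMSO groups overlapped, with an SD of 0.85 after P/I, and its log2 fold changes of -0.87 and 0.72 did not pass the test.

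The spindle and midzone proteins Tpx2, Prc1, Dlgap5 and Hmmr bind and organize microtubules, Prc1 as the bundler of the anaphase midzone. All 4 fell with P/I and all 4 were higher with CHX during P/I. Prc1 had log2 fold changes of -1.43 (adjusted p = 0.00512) and 1.58 (adjusted p = 0.00179), and Tpx2, which activates Aurora A, -1.28 (adjusted p = 0.00494) and 1.20 (adjusted p = 0.00503). Hmmr had -1.16 and 1.32, and Dlgap5 -0.52 and 0.57. The P/I calls of Hmmr and Dlgap5 were lost without replicate 2 of P/I in DMSO (adjusted p = 0.163 and 0.1) and without replicate 3 of it, and that of Hmmr also without replicate 1 or 3 of the unstimulated DMSO arrays (0.135 and 0.117).

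Mki67 encodes the proliferation antigen Ki-67, which coats mitotic chromosomes, Top2a untangles DNA, and Anln (anillin) is a scaffold of the cleavage furrow. For Mki67, the 3 unstimulated DMSO arrays gave log2 11.73, 11.77 and 11.67 (mean 11.72 ± 0.05) and the 3 arrays with P/I gave 10.97, 10.76 and 10.30 (mean 10.68 ± 0.34). Pretreatment with CHX gave 11.67, 11.84 and 11.86 at 0 h (mean 11.79 ± 0.10) and 11.67, 12.02 and 11.996 after P/I (mean 11.89 ± 0.20). P/I without CHX gave the 3 lowest arrays. Mki67 fell 2.06-fold (-1.05, SE 0.15, adjusted p = 0.000593) and had the smallest p of the mitosis genes for CHX during P/I (1.22, SE 0.15, adjusted p = 0.000133). Top2a stood at log2 11.32, 11.23 and 11.28 in the unstimulated DMSO arrays (mean 11.27 ± 0.05) and at 11.42, 10.70 and 10.95 after P/I (mean 11.02 ± 0.36). With CHX, its level was 11.40, 11.39 and 11.48 without P/I (mean 11.42 ± 0.05) and 11.38, 11.45 and 11.47 with P/I (mean 11.43 ± 0.05). The Top2a arrays of the DMSO groups overlapped. Its P/I effect did not pass the test (-0.25, SE 0.14, adjusted p = 0.331), and CHX during P/I gave 0.41, SE 0.14, adjusted p = 0.0605, a call lost without replicate 2 or 3 of either stimulated group (adjusted p 0.146 to 0.209). The second probe set of Top2a, at means of log2 5.0 to 5.51, went the other way with CHX during P/I (-0.51, adjusted p = 0.00167). The log2 level of Anln was 8.87, 8.54 and 8.50 in unstimulated DMSO-treated cells (mean 8.63 ± 0.20) and 8.68, 7.43 and 7.43 in P/I-stimulated ones (mean 7.85 ± 0.72). The CHX-treated cells gave 9.15, 9.19 and 9.25 when unstimulated (mean 9.20 ± 0.05) and 8.63, 8.40 and 8.50 when stimulated (mean 8.51 ± 0.12). The DMSO arrays with P/I overlapped those without it because of replicate 1. Anln fell with P/I (-0.79, SE 0.26, adjusted p = 0.0749), a call lost when any 1 of 7 arrays was left out (0.101 to 0.265), and CHX during P/I gave 0.66, SE 0.26, adjusted p = 0.109.

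**Figure D4:**
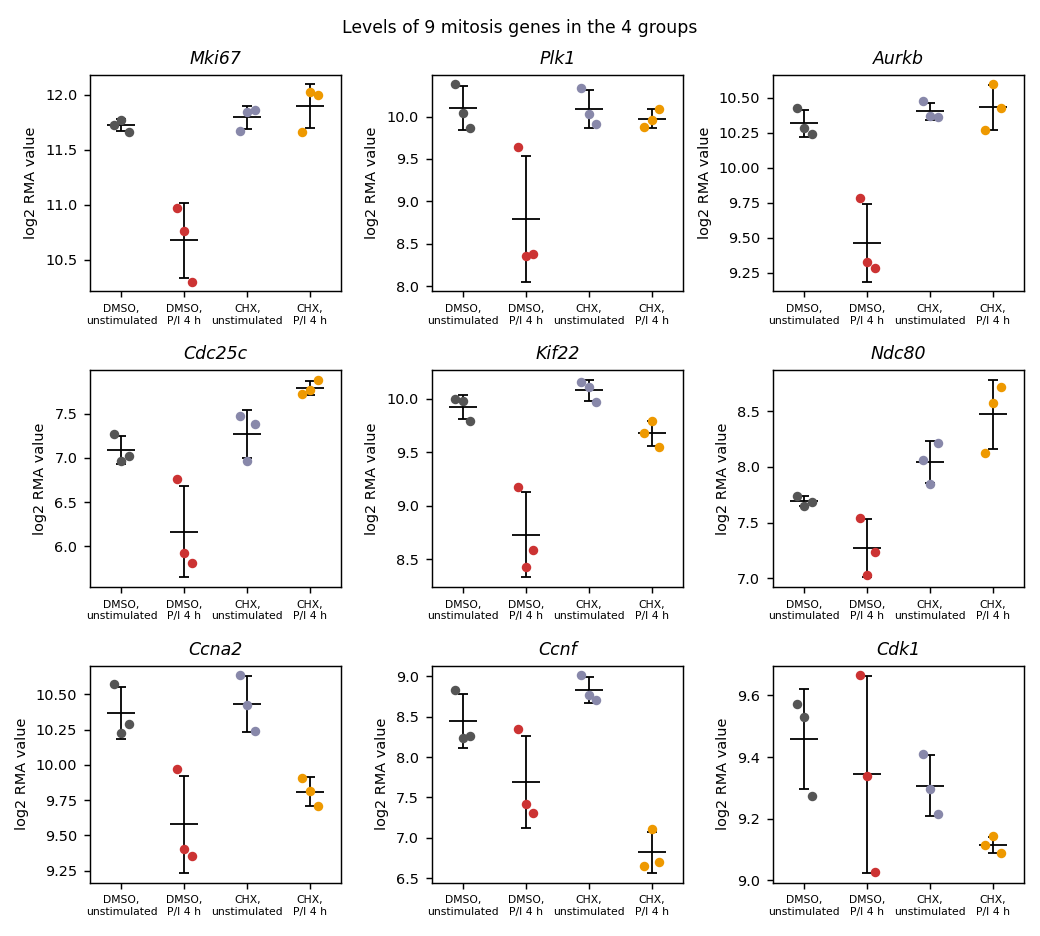
Log2 RMA values (y axis, a separate scale in each panel) of 9 mitosis genes in the 4 groups (x axis); each point is 1 array, and bars give the mean and SD of the 3 replicates. Mki67, Plk1, Aurkb and Cdc25c are lowest with P/I in DMSO and near or above the unstimulated level with CHX and P/I, Ccna2 is low in both stimulated groups, Ccnf is lowest with CHX and P/I, and the Cdk1 groups overlap in the DMSO arrays.

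After 30 min of CHX without P/I, none of the mitosis genes passed the test. The P/I-stimulated CHX-treated cells had CHX for 4 h longer, and this comparison does not cover that exposure. Of the 41, 0 were higher and 0 lower by limma, and 0 had an unadjusted p under 0.05, while 0.0299% of all tested probe sets were higher and 0% lower. The median log2 fold change was 0.15, against -0.02 over all tested probe sets, and 32 of the 41 values were above 0. The members with the smallest p were Anln (0.57, SE 0.26, adjusted p = 0.729), Ndc80 (0.35, SE 0.16, adjusted p = 0.729), Ttk (0.34), Ccnf (0.38), Kif20b (0.51) and Incenp (0.14). In Anln, Ndc80 and Incenp every CHX array lay above every DMSO array. Such a separation held for 6 of the 41 genes, against 7.06% of all tested probe sets. Without the 4 arrays of replicate 1, 4 genes (Ccnf, Ttk, Kif20b and Anln) were higher, while 2.83% of all tested probe sets were higher and 0.38% lower in that fit.

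In CHX-treated cells, 5 of the 41 mitosis genes (12.2%) were lower after P/I than at 0 h and 1 was higher. Over all tested probe sets 11.6% were lower and 10.2% higher. P/I, further culture and more hours in CHX cannot be told apart here. The median log2 fold change was -0.13, against 0.02 over all tested probe sets. In 16 of the 41 genes every P/I array lay below every unstimulated CHX array, against 17.4% of all tested probe sets. In 3 genes every P/I array lay above, against 18.3%. Ccnf had the largest decrease (log2 fold change -2.01, SE 0.25, adjusted p = 0.000207), a 4.03-fold lower level, and Ccna2 fell as well (-0.62, SE 0.16, adjusted p = 0.0201). The calls of these 2 genes held without each single array. Without the 4 arrays of replicate 2 or the 4 of replicate 3, only Ccnf passed. In those fits 6.38% and 4.60% of all tested probe sets were lower. Cdc25b (-0.66, SE 0.20, adjusted p = 0.041), Nuf2 (-0.76, SE 0.24, adjusted p = 0.0469) and Cdca3 (-0.39, SE 0.12, adjusted p = 0.0487) were lower, and Ndc80 was higher (0.43, SE 0.16, adjusted p = 0.0995). None of these 4 passed without replicate 1 of the unstimulated CHX arrays or without replicate 2 of P/I in CHX, where the adjusted p was 0.1 to 0.257. The count of called genes was 15 without replicate 1 of P/I in DMSO, an array that enters this comparison only through the shared variance. In that fit 12.1% of all tested probe sets were higher and 13.7% lower.

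The P/I effect differed between CHX- and DMSO-treated cells in 19 of the 41 genes by the interaction term. In CHX-treated cells this effect also covers the longer time in CHX, and the term cannot tell the 2 apart. In 18 (43.9%) the P/I effect was higher with CHX and in 1, Ccnf, it was lower, while 6.04% of all tested probe sets were higher and 7.62% lower. The median difference was log2 0.75, against 0.05 over all tested probe sets. Mki67 (1.15, SE 0.21, adjusted p = 0.00563), Aurkb (0.88, SE 0.18, adjusted p = 0.00984), Cdc25c (1.44, SE 0.30, adjusted p = 0.0111), Kif4 (1.60, SE 0.38, adjusted p = 0.0195), Cenpa (0.86, SE 0.21, adjusted p = 0.0228) and Cenpe (1.56, SE 0.38, adjusted p = 0.0234) had the smallest p. Cyclin F, with the opposite sign, had -1.26, SE 0.36, adjusted p = 0.0476. The number of higher genes depended on few arrays. Without replicate 1 of P/I in DMSO it was 33, against 7.29% of all tested probe sets. Without replicate 3 of CHX without P/I it was 11, against 4.94%. Without the 4 arrays of replicates 1, 2 and 3 it was 34, 0 and 1, against 9.65%, 1.75% and 1.00% of all tested probe sets. It was 10 after median centring of the arrays, where 3.68% of all tested probe sets were higher and 8.84% lower.

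Many other genes of mitosis were also lower with P/I in DMSO and higher with CHX during P/I. Of 103 further genes of the anaphase-promoting complex, kinetochore, condensin, cohesin, spindle and cytokinesis, 46 fell with P/I in DMSO and 4 rose, and with CHX during P/I 50 were higher and 6 lower. Their median log2 fold changes were -0.35 and 0.42. Over all tested probe sets 8.42% were lower and 9.05% higher with P/I in DMSO. With CHX during P/I, 13.2% were higher and 12% lower. Of 31 further spindle and cytokinesis genes, 17 fell and 0 rose, among them the spindle pole organizer Numa1 (-0.92), Depdc1b (-1.24), the midzone protein Racgap1 (-1.27) and Ckap2l (-1.45). With CHX during P/I 20 of them were higher and 2 lower, among the higher Racgap1 (1.26), Spag5 (1.64), the kinesin Kif18b (1.30) and Nusap1 (1.75). Of 20 condensin and cohesin genes, 11 fell and 0 rose, among them the condensin subunits Ncapd2 (-1.04) and Ncaph (-1.24) and the cohesin subunit Rad21 (-0.43). During P/I, 11 were higher with CHX and 0 lower.

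Of 27 further kinetochore and centromere genes, 9 fell with P/I in DMSO and 3 rose. All tested probe sets had 8.42% lower and 9.05% higher here, and 13.2% higher and 12% lower with CHX during P/I. In this paragraph the counts that rose with P/I or were lower with CHX are near or below these shares. Cenpn (-1.08), Ska2 (-1.04) and the cohesin protector Sgo2a (-1.14) fell, and Mis12, a subunit of the outer kinetochore, rose (1.00). With CHX during P/I 10 of these were higher and 2 lower, among the higher Cenpn (1.43). Of 25 genes of the anaphase-promoting complex, its substrates and inhibitors, 9 fell and 1 rose: its activator Fzr1 (-0.79), its subunit Anapc2 (-0.99) and its inhibitor Fbxo5 (-1.07) fell, and the kinetochore protein Zwint rose (0.56). During P/I, CHX gave 9 higher and 2 lower.

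Of 23 transcription factors known to act on G2 and mitosis genes, 7 fell with P/I in DMSO and 2 rose. The shares over all tested probe sets, for all lists here, were 8.42% lower and 9.05% higher. With CHX during P/I they were 13.2% higher and 12% lower. The pocket protein genes Rbl2 (p130, -1.76) and Rbl1 (p107, -0.91), E2f8 (-1.60) and Foxm1 (-0.82) fell. With CHX during P/I Rbl2 (1.14) and Rbl1 (0.81) were among 10 that were higher, and E2f3 (-0.81) and E2f6 (-1.09) among 5 that were lower. Of 12 measured inhibitors of the cell cycle, 5 rose with P/I and 0 fell: the stress-induced Gadd45b (1.58), Gadd45a (1.52) and Gadd45g (3.02), the Cdk4 and Cdk6 inhibitor Cdkn2b (1.40), and Btg1. With CHX during P/I Gadd45b (3.03), Btg2 (3.17), Tob1 (1.21) and Cdkn2d (1.84) were among 5 that were higher, and 3 were lower. Of 30 DNA replication genes, which act in S phase, 10 fell with P/I and 1 rose, among them Tk1 (-1.28), Chaf1a (-0.62), Mcm3 (-0.64) and Mcm6 (-0.62). During P/I, 7 were higher with CHX and 2 lower, the latter being the G1/S cyclin gene Ccne2 (-1.93) and the replication licensing gene Cdc6 (-0.72).

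**Figure D5:**
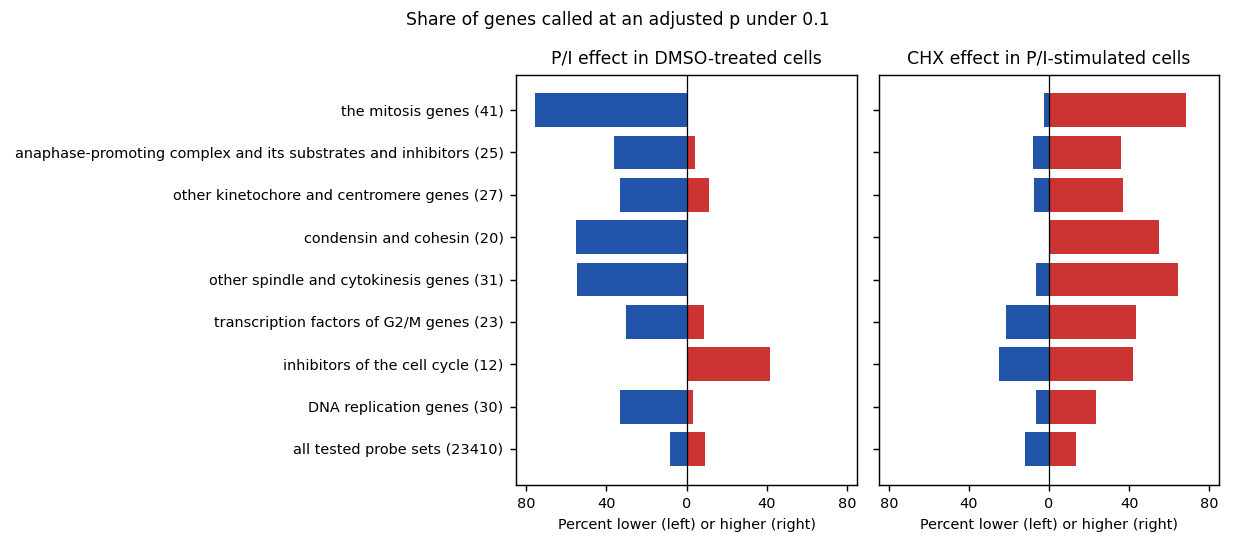
Share of genes (x axis, percent) lower (blue, to the left) or higher (red, to the right) at an adjusted p under 0.1 with P/I in DMSO-treated cells and with CHX during P/I, for the 41 mitosis genes, 7 further gene lists (number of measured genes in brackets) and all 23410 tested probe sets. The mitosis genes reach 75.6% lower with P/I and 68.3% higher with CHX, against 8.42% and 13.2% of all tested probe sets, and the inhibitors of the cell cycle have 5 higher and 0 lower of 12 with P/I.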

How the data were processed

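RNA of 12 samples, 3 in each of 4 groups, was hybridized to Affymetrix Mouse Gene 1.0ST arrays. The deposited values are log2 intensities, which the authors made in Partek (version not given in the sources used here) by robust multichip average (RMA), with background adjusted for probe sequence and quantile normalization. Quantile normalization gives all arrays nearly 1 distribution, so a change shared by most genes would not be seen. Of 35399 probe sets, 21789 have 1 gene symbol in the platform annotation, 1621 several and 11989 none. No column of other samples was present.

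The 23410 probe sets with a symbol entered a linear model in limma 3.58.1 (R 4.3.3): a mean per group over 12 arrays, 5 contrasts, moderated variance (8 residual and 3.627 prior degrees of freedom), two-sided tests, Benjamini-Hochberg adjustment over all 23410, and a threshold of 0.1, the study's FDR. The interaction is the P/I effect in CHX-treated minus that in DMSO-treated cells. The script was tested on simulated data. Each probe set has 1 variance, estimated over all 4 groups. A p-value therefore does not measure the spread of the compared groups alone. The number of arrays limits the precision. Levels of different probe sets are not comparable, so mitosis genes were not ranked by level, and marker levels are given as a description.

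The mitosis genes, roles, gene lists and tests were chosen with earlier results of these data known. All 12 values were given for the genes with the 6 smallest p of each contrast, those called opposite to most, and Cdk1, Plk1, Aurkb, Top2a and Mki67. Of each further list, genes called with the 4 smallest p of a contrast were named, and Btg1 was named after its values were seen. All 41 symbols matched GRCm38.p6 by Entrez identifier. Alternatives were a replicate block, median centring, quantile normalization of the tested probe sets, a threshold of 0.05, a mean of at least log2 5, a variance trend, no moderation (an analysis of variance, as in the methods), only the groups compared, the mean of a gene's probe sets, and arrays left out singly or by replicate number.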

Additional observations from a re-analysis of the deposited data

Results flagged for a closer look

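For 19 mitosis genes the P/I effect differed between CHX- and DMSO-treated cells by the interaction term of limma. With CHX, this effect cannot be told apart from that of more hours in CHX. The difference, as log2 P/I effect with CHX minus that without, was above 0 in 18 genes. It was 1.15 for Mki67 among chromosome proteins, 1.44 for Cdc25c, and 1.63 for Aurka and 1.19 for Plk1 among kinases. In the passenger complex it was 0.88 for Aurkb, 1.00 for Cdca8 and 0.55 for Incenp. Among kinetochore genes it was 0.86 for Cenpa, 1.56 for Cenpe, 1.43 for Cenpf and 0.85 for Ndc80, and for Cdca3 it was 0.59. The kinesins had 1.60 (Kif4), 1.29 (Kif14), 0.80 (Kif22) and 0.98 (Kif11), and the spindle proteins 1.64 (Prc1) and 1.07 (Tpx2). For Ccnf the difference was -1.26.

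Of these 19 calls, 11 held without each single array (Cdc25c, Aurka, Aurkb, Cenpa, Cenpe, Cenpf, Ndc80, Kif4, Kif14, Prc1 and Mki67). The 8 others lost the call without at least 1 array. Plk1, Incenp and Kif11 lost it when any 1 of 10 arrays was left out (adjusted p 0.112 to 0.193, 0.102 to 0.155 and 0.123 to 0.176) and Tpx2 when any 1 of 11 was left out (0.112 to 0.195). Ccnf (0.104 to 0.12), Cdca8 (0.103 to 0.117) and Kif22 (0.109 to 0.111) lost it when any 1 of 4 arrays was left out, and Cdca3 when any 1 of 3 was left out (0.107 to 0.128).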

How the results depend on the processing

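Over the 5 comparisons and 23 alternative fits, the calls of the 41 genes were refitted 1936 times: 1617 passed again, 319 were lost and 171 others were gained. No gene called in either fit changed direction, while up to 5 genes called in neither changed sign in a single fit. Leaving out arrays, singly or by replicate number, gave 10 to 39 lower genes with P/I in DMSO, 9 to 39 higher and 0 to 2 lower with CHX during P/I, 0 to 4 higher with CHX alone, 0 to 7 higher and 1 to 11 lower with P/I in CHX, and 0 to 34 higher and 0 to 1 lower for the interaction. With P/I in CHX, the 1 higher gene became 0 at a threshold of 0.05, with median centring, without moderation and with a variance trend, 3 with only the groups compared and 2 with quantile normalization, and the 5 lower genes became 12 with only the groups compared, 3 without moderation, 8 with a mean of at least log2 5 and 9 with quantile normalization. The interaction gave 10 higher genes with median centring or without moderation, and 0 lower without moderation. The median level with CHX and P/I was 9.10 instead of 9.15 with the mean of all probe sets of a gene, and a CHR was found in 12 genes in the bases before the start alone. In the fits without arrays, the share of all tested probe sets lower with P/I in DMSO was 2.76% to 12.6%. The share higher with CHX during P/I was 5.93% to 17.2%, and for the interaction it was 1.00% to 9.65%. The cause of these changes was not tested.

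Arrays of the same replicate number deviated together: their residual correlations were 0.064 to 0.750, with 17 of 18 over 0.1, against -0.58 to 0.31 for other numbers, and in 33 of 36 comparisons an array correlated best with its own number. This is a hint from the data, since no source says what the numbers share. With the replicate number as a block, 37 genes were lower with P/I in DMSO (12.9% of all tested probe sets), the 6 gained being Birc5, Cdc20, Kif18a, Kif20b, Kif23 and Ndc80. With CHX during P/I 35 were higher (16.5%) and 1 lower (16%), with CHX alone 0 changed (0.491% higher), with P/I in CHX 2 were higher (13.5%) and 10 lower (16.9%), and for the interaction 27 were higher (10%) and 1 lower (12.2%).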
